A study of Mus musculus with 22 samples.

Results

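The neuregulins Nrg1, Nrg2, Nrg3 and Nrg4 and the ErbB receptors Egfr, Erbb2, Erbb3 and Erbb4 were followed in granule cells of the mouse cerebellum, taken at postnatal day 7 and measured on 22 Affymetrix arrays. These 8 genes were chosen by their gene symbols, with the low signal of Nrg3 after ICRF-193 already known. They carry 19 of the 45101 probe sets of the array, a probe set being a group of short probes that together measure one transcript region. Nrg1, Erbb2 and Erbb4 had 1 probe set each, Nrg3, Nrg4 and Erbb3 had 2, Nrg2 had 3 and Egfr had 7.

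The arrays form 3 independent comparisons. For its work on Chd7 and Top2b the study describes granule neurons that became postmitotic in culture, as distinct from its freshly isolated precursors. Chd7 mutant granule neurons (n = 4) were set against control granule neurons (n = 4), to ask which transcripts depend on the chromatin remodeller Chd7. The study used Atoh1-Cre::Chd7 f/f mice and Chd7 f/f controls for this, so that Cre acted only in cells with a history of Atoh1, the factor of granule cell precursors, and both groups carried the floxed allele. The label of the control arrays calls their genotype wild type. ICRF-193, which blocks the enzymes Top2a and Top2b without breaking DNA, was given to granule neurons (n = 4) for 12 h at 10 µM, and their counterparts received the solvent DMSO (n = 4). Granule cells cultured with an agent labelled Smo2 (n = 3) had as their counterpart cells grown without the agent (n = 3). The labels do not say what Smo2 is, and the study describes a Smoothened agonist for cultures of proliferating precursors. The methods state that the sex of the pups was not distinguished, and no source used here says whether cells of several pups were pooled.

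Neuregulins are ligands with an EGF-like domain that are made as membrane proteins and released or exposed by proteases. They bind Erbb3 and Erbb4, which pair with each other or with Erbb2, a receptor that has no ligand of its own but an active kinase. Egfr is the receptor of EGF itself and of Tgfa, and also pairs with Erbb2. Nrg3 binds Erbb4 and is made mostly in the nervous system, and in the cerebellum neuregulin signalling is known from the migration of granule cells along Bergmann glia and from the maturation of their synapses. Nrg1, Nrg3 and Erbb4 are also among the longest genes of the genome.

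Signals are given as log2 values after quantile normalisation, with signals under 16 set to 16, so that 4.00 is the lowest value possible. A probe set was tested where its mean over all arrays reached 6.44, the median of all probe sets, which left 22551. Of the 19 neuregulin and ErbB probe sets 6 passed this filter, 1 of Nrg3, 1 of Nrg2 and 4 of Egfr. The other 13 were dim, and none of the probe sets of Nrg1, Nrg4, Erbb2, Erbb3 and Erbb4 passed. A call is an adjusted p under 0.05 in limma. Levels of different probe sets are not compared with each other, since probes bind with different strength.

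Of 10 granule neuron marker genes 9 were above the filter. Their summed signal, on the linear scale, was 78800 to 86900 in Chd7 mutant and 90300 to 92500 in control arrays, 82100 to 87400 with ICRF-193 and 89400 to 94500 with DMSO, and 64500 to 71400 with Smo2 and 101000 to 103000 without it. In the mutant Pax6 (-0.42, limma adjusted p = 0.0136) and Barhl2 (-0.59, 0.00435) were called lower and 0 of the 9 higher. With ICRF-193 Rbfox3 (-1.02, limma adjusted p = 0.000238) was called lower and Neurod2 (0.51, 0.0136) higher. Of the 2 Chd7 probe sets, 1437745_at fell by 2.03 in the mutant arrays (9.47 ± 0.54 in mutant and 11.50 ± 0.23 in control arrays, SD, n = 4 each, limma adjusted p = 0.00342), while 1448026_at did not pass (adjusted p = 0.299, with 11.65 ± 0.25 in mutant and 11.89 ± 0.13 in control arrays). Both Chd7 probe sets were also lower with ICRF-193, 1448026_at by -1.35 (limma adjusted p = 0.000893) and 1437745_at by -1.28 (0.0055). With Smo2 their differences were -0.67 (limma adjusted p = 0.000204) and -0.72 (0.000105). The mean log2 signal of the Y-linked genes was 4.00 to 6.95 in mutant and 8.38 to 9.03 in control arrays. These ranges do not overlap, so the covariate given below cannot separate this signal from the genotype. The part of this signal in the results was not tested otherwise. In this bulk RNA fewer cells of a type and less RNA per cell cannot be told apart.

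Nrg3 was the neuregulin that stood out. In Chd7 mutant neurons Nrg3 (1421017_at) had 8.38, 7.98, 7.86 and 8.04, against 8.70, 8.85, 8.58 and 8.54 in control neurons. Every mutant array was below every control array. The mean was 8.06 ± 0.22 in mutant and 8.67 ± 0.14 in control arrays (SD, n = 4 each), a difference of -0.60 (SE 0.12, 95% interval -0.88 to -0.32) or 1.52-fold, and it passed the test (limma adjusted p = 0.0255). On the scale of the deposited signals these arrays read 328, 250, 241 and 274 in mutant and 406, 450, 379 and 367 in control neurons. The difference was -0.60 within replicates 1 and 2 and -0.61 within replicates 3 and 4.

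The other Nrg3 probe set, 1460289_at, was dim but showed the same difference. It had 5.85, 5.95, 5.86 and 5.86 in Chd7 mutant neurons, against 6.46, 6.58, 6.46 and 6.46 in control neurons, again with no overlap. The difference was -0.61 (SE 0.04, limma fitted to all 45101 probe sets, adjusted p = 0.00228, or 0.0394 with a block for the replicate number). The call for 1421017_at stood close to the threshold. It was lost without replicate 1 (adjusted p = 0.0699), 2 (0.065) or 3 (0.056) of the control or without replicate 2 (0.0644), 3 (0.0616) or 4 (0.0625) of the mutant, with differences between -0.63 and -0.54. With the Y-linked mean as a covariate, chosen after seeing the data, the difference of 1421017_at was -0.31 (adjusted p = 0.354). The groups do not overlap in that mean, so this value does not separate it from the genotype.

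With ICRF-193 Nrg3 was lower still. This is the comparison on which the gene was chosen, so its values are a description without a test. Nrg3 (1421017_at) had 5.51, 5.90, 4.10 and 5.08 in ICRF-193 neurons, against 8.51, 8.58, 8.01 and 7.85 in DMSO neurons. No array of one group came near the range of the other. The means were 5.15 ± 0.77 with ICRF-193 and 8.24 ± 0.36 with DMSO (SD, n = 4 each), a difference of -3.09 (SE 0.37). Deposited signals were 48.3, 62.9, 21.6 and 40.7 with ICRF-193 and 351, 364, 278 and 249 with DMSO, so that ICRF-193 replicate 3 came close to the floor and no exact fold is given. The difference was -2.84 within replicates 1 and 2 and -3.34 within replicates 3 and 4, where both groups were lower. The dim probe set 1460289_at had 4.51, 4.00, 4.65 and 4.93 in ICRF-193 neurons and 5.81, 5.84, 6.22 and 6.10 in DMSO neurons. Its difference of -1.47 (SE 0.21) includes 1 array at the floor.

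With Smo2 Nrg3 was lower as well. Nrg3 (1421017_at) had 7.14, 6.76 and 6.68 in cells with Smo2, against 8.56, 8.56 and 8.57 in cells without it. The groups did not overlap, and the arrays without Smo2 were nearly identical. The means of 6.86 ± 0.25 with Smo2 and 8.56 ± 0.01 without it (SD, n = 3 each) differed by -1.70 (SE 0.13, 95% interval -2.01 to -1.39), a 3.26-fold decrease (limma adjusted p = 1e-04). The dim 1460289_at had 5.75, 5.56 and 6.06 with Smo2 and 6.33, 6.58 and 6.56 without it, a difference of -0.70 (SE 0.15, limma on all probe sets, adjusted p = 0.0271). That call was lost without replicate 2 (adjusted p = 0.0899) or 3 (0.0895) of the cells without Smo2 and without replicate 1 (0.0899) or 2 (0.062) of the cells with it.

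**Figure D1:**
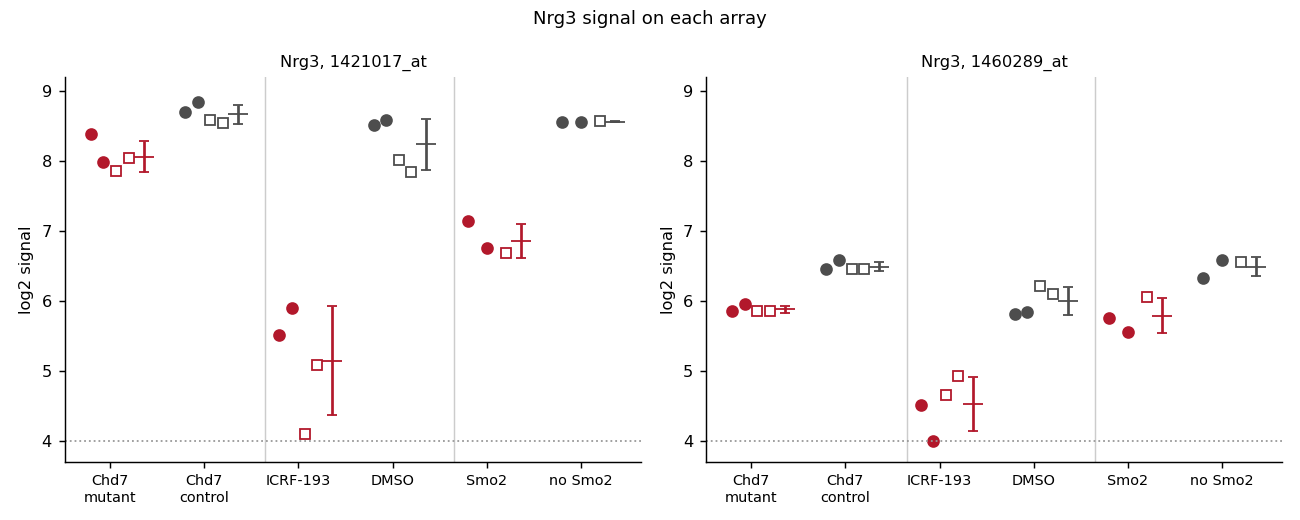
Log2 signal (vertical axis) of both Nrg3 probe sets on each of the 22 arrays by group (horizontal axis), where filled circles are the replicates numbered 1 and 2 and open squares the higher numbers, the dash with its bar is the mean ± SD, and the dotted line is the floor at 4.00. In each comparison the left group lies below the right one in both panels, with differences of -0.60, -3.09 and -1.70 for 1421017_at and of -0.61, -1.47 and -0.70 for 1460289_at.

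Over the 6 groups the mean of Nrg3 (1421017_at) was highest in Chd7 control neurons (8.67), followed by cells without Smo2 (8.56), DMSO neurons (8.24), Chd7 mutant neurons (8.06), cells with Smo2 (6.86) and ICRF-193 neurons (5.15). The ranges of neighbours overlapped among the first 4 of these groups, while the Smo2 and ICRF-193 groups each lay apart from the others. The comparisons were separate experiments, so levels set across them also carry the difference between experiments. Over all 22 arrays both Nrg3 probe sets had a Pearson correlation of 0.859, as a description. The sizes of the 3 differences were not tested against each other.

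Among 10772 genes, each by its brightest probe set above the filter, the difference of Nrg3 ranked 246 from the lowest in the Chd7 mutant, 1 with ICRF-193 and 89 with Smo2. Nrg3 was chosen on its low signal with ICRF-193, so its rank there is a description and not a result. The background differed widely between the comparisons. In the Chd7 mutant 3.44% of the tested probe sets were called lower and 3.41% higher, with ICRF-193 2.77% lower and 1.98% higher, and with Smo2 34.9% lower and 26.3% higher. In the fits of every probe set 1.3% were called lower and 1.47% higher in the mutant, and 16.1% lower and 13.9% higher with Smo2.

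Against this background 1 of the 6 tested neuregulin and ErbB probe sets was called lower in the Chd7 mutant, that of Nrg3, and 0 were called higher (1 at an unadjusted p under 0.05, that of Nrg2, by limma and by the methods' t-test alike). With Smo2 3 of 6 were called lower, 1 of Nrg3 and 2 of Egfr, and 0 were called higher, nor was any higher at an unadjusted p under 0.05 by limma or by the methods' t-test. By the methods' t-test at that threshold 2 were lower, since Egfr 1435888_at just missed it. The limma count of 3 of 6 stands beside the limma background of 34.9% lower, and nothing particular to the family is read from so few probe sets. Of the 13 dim probe sets 1 was called lower in the mutant and 1 with Smo2, in both cases 1460289_at of Nrg3, and 0 were called higher. The median difference of the 6 tested probe sets was -0.09 in the mutant, -0.09 with ICRF-193 and -0.28 with Smo2, beside -0.02, 0.01 and -0.10 over all tested probe sets.

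**Figure D2:**
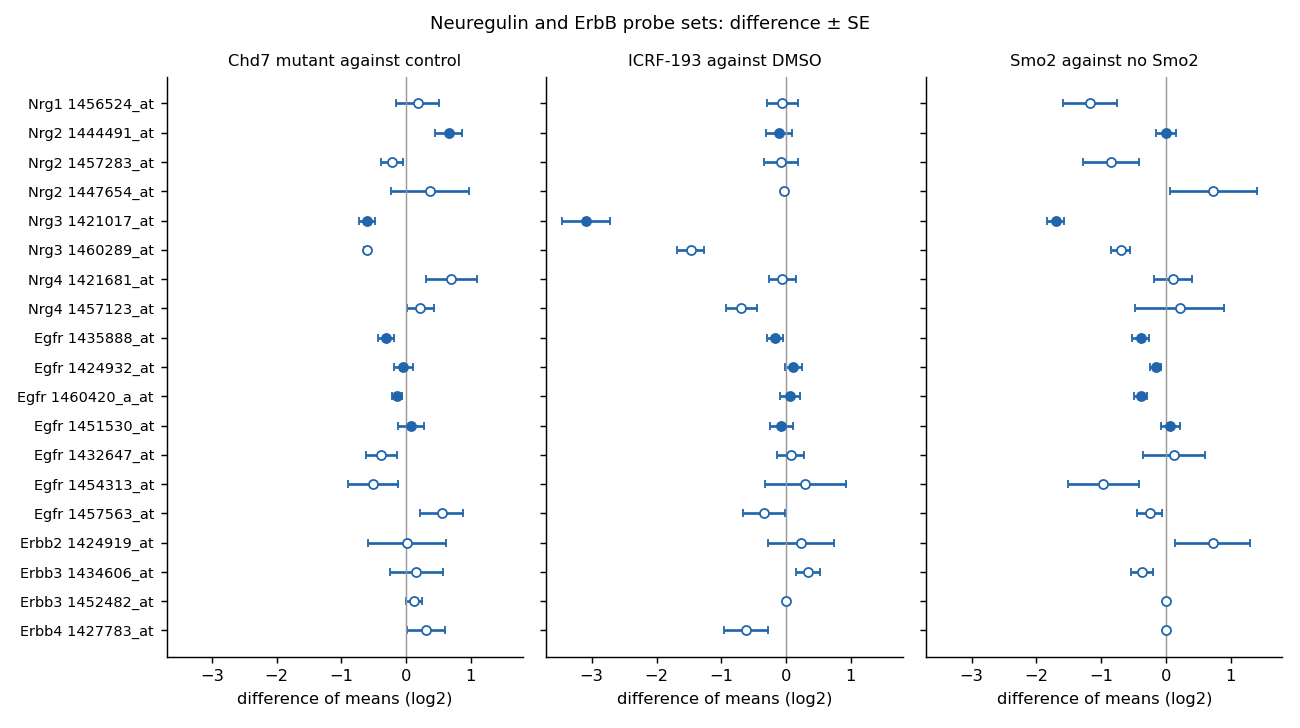
Difference of group means (horizontal axis, log2, the left-named group minus the right-named one) ± SE for each of the 19 neuregulin and ErbB probe sets (rows) in the 3 comparisons, with filled circles for tested and open circles for dim probe sets. Both Nrg3 probe sets lie left of 0 in every panel, down to -3.09 with ICRF-193.

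Nrg2, a second ligand of Erbb3 and Erbb4, moved otherwise. Its tested probe set 1444491_at had 7.83, 7.69, 8.12 and 7.43 in Chd7 mutant neurons, against 7.46, 7.13, 6.56 and 7.28 in control neurons. The mutant arrays were mostly the higher ones, with an overlap through mutant replicate 4, and the difference of 0.66 (SE 0.21) did not pass (limma adjusted p = 0.106). With ICRF-193 it had 7.61, 7.62, 7.68 and 8.02, against 7.57, 7.67, 7.71 and 8.42 with DMSO, a difference of -0.11. With Smo2 it had 7.68, 7.74 and 7.33, against 7.56, 7.36 and 7.82 without Smo2. These last groups had the same mean of 7.58, with a 95% interval of the difference of -0.38 to 0.38 (limma adjusted p = 0.997). Of the dim Nrg2 probe sets 1457283_at lay between 4.86 and 6.73, and 1447654_at was at the floor on 16 of 22 arrays.

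Nrg1, the founding neuregulin, was dim on its only probe set (1456524_at). It had 4.00, 5.13 and 5.48 with Smo2, against 6.18, 5.86 and 6.10 without Smo2, without overlap and with 1 Smo2 array at the floor. The difference of -1.17 (SE 0.42) did not pass in limma on all probe sets (adjusted p = 0.114). Its difference was 0.18 in the Chd7 mutant (adjusted p = 0.857) and -0.06 with ICRF-193. Nrg4, a ligand of Erbb4 known from adipose tissue, did not exceed 5.69 on 1421681_at or 5.84 on 1457123_at, which was at the floor on 16 arrays. Its 1421681_at had 5.69, 5.06, 4.74 and 5.06 in mutant and 4.25, 4.00, 5.49 and 4.00 in control arrays (difference 0.70, adjusted p = 0.457).

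Egfr was the only receptor with probe sets above the filter, and these did not move alike. The probe set 1435888_at had 10.73, 10.80, 11.15 and 11.08 in Chd7 mutant neurons, against 11.06, 11.13, 11.40 and 11.40 in control neurons. Replicates 3 and 4 were above replicates 1 and 2 in both groups, and every mutant array was below the control array of its own number, with differences of -0.33 to -0.25. The difference was -0.31 (SE 0.13), which did not pass without a block (limma adjusted p = 0.197) and passed once the number was made a block (adjusted p = 0.0381). It also passed with median centring (-0.42, adjusted p = 0.0426). With the Y-linked covariate, whose ranges do not overlap between mutant and control arrays, it had -0.77 (adjusted p = 0.0235). The other tested Egfr probe sets had differences of -0.04 (1424932_at), -0.14 (1460420_a_at) and 0.07 (1451530_at) in the mutant, with adjusted p-values of 0.911, 0.301 and 0.875, and with the covariate 1424932_at had -0.66 (adjusted p = 0.0181). With ICRF-193 the 4 tested Egfr probe sets differed from DMSO by between -0.17 (1435888_at) and 0.11 (1424932_at), with overlapping groups for each.

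With Smo2 Egfr fell on 2 of the 4 tested probe sets. The probe set 1435888_at had 10.56, 10.96 and 10.66 with Smo2, against 10.97, 11.16 and 11.22 without it. The groups did not overlap but nearly touched, and the difference of -0.39 (SE 0.13, limma adjusted p = 0.035) was no longer called with median centring (-0.21, adjusted p = 0.162) or without the filter (0.0975). It also lost its call without replicate 2 (adjusted p = 0.0912) or 3 (0.0982) of the cells without Smo2 and without replicate 1 (0.0987) or 3 (0.0978) of the cells with it. The probe set 1460420_a_at had 8.03, 8.23 and 8.27 with Smo2, against 8.51, 8.47 and 8.72 without it, a difference of -0.39 (SE 0.10, adjusted p = 0.0156). On 1424932_at the difference was -0.16 (95% interval -0.36 to 0.05, adjusted p = 0.148) and on 1451530_at 0.07 (-0.26 to 0.41, adjusted p = 0.66). The 3 dim Egfr probe sets did not pass in either comparison.

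**Figure D3:**
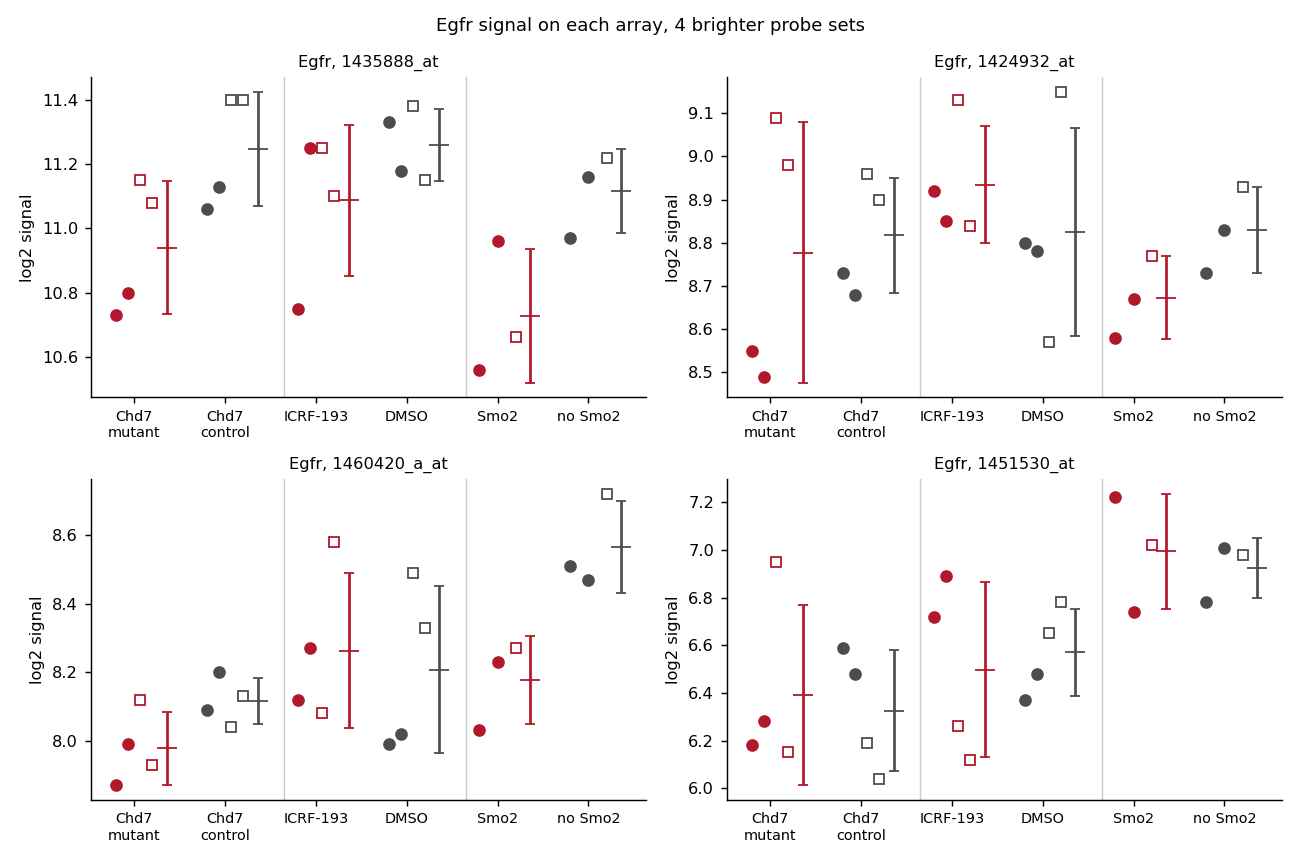
Log2 signal (vertical axes, each with its own range) of the 4 tested Egfr probe sets on each array by group (horizontal axis), where filled circles are the replicates numbered 1 and 2, open squares are the higher numbers, and the dash with its bar is the mean ± SD. The Smo2 arrays lie below those without Smo2 on 1435888_at and 1460420_a_at, with a difference of -0.39 on each, and overlap with them on the other two.

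The receptors of the neuregulins themselves gave little signal. Erbb4 (1427783_at), the receptor that binds all neuregulins, was at the floor on 17 of 22 arrays and did not exceed 5.44, reached on a DMSO array. Erbb3 was at the floor on 21 arrays on 1452482_at. On 1434606_at it ranged over all arrays between 5.09 and 6.65, and its difference was 0.16 in the Chd7 mutant, 0.34 with ICRF-193 and -0.37 with Smo2. Erbb2 (1424919_at), the shared partner, lay between 4.00 and 6.07, with 4 arrays at the floor. Its difference was 0.01 in the mutant, 0.23 with ICRF-193 and 0.72 with Smo2 (SE 0.58). In the fits of every probe set none of these passed, the smallest adjusted p of any uncalled dim probe set being 0.457 in the mutant and 0.114 with Smo2. This does not show that the receptors were absent or that their levels were alike between the groups.

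By annotated length in GRCm38.p6 Nrg3 spans 1108.1 kb, Nrg1 1084.2 kb and Erbb4 1076.7 kb, while Nrg2 spans 183 kb, Egfr 161.7 kb, Nrg4 63.4 kb, Erbb2 25.2 kb and Erbb3 22.1 kb. Nrg3 ranked 25 by length of 10751 genes above the filter with a length. It was the only one of the 3 longest of these genes with a tested probe set. Of the 33 other genes of at least 1000 kb, 10 were called lower and 3 higher in the Chd7 mutant, 19 lower and 1 higher with ICRF-193, and 23 lower and 2 higher with Smo2. Their median differences were -0.31, -1.15 and -0.96. Of 6630 genes of 10 to 100 kb, 134 (2.02%) were called lower and 268 higher in the Chd7 mutant. With ICRF-193 these counts were 62 (0.935%) and 168, and with Smo2 2338 (35.3%) and 2024. Over all tested probe sets 3.44%, 2.77% and 34.9% were called lower and 3.41%, 1.98% and 26.3% higher. The limit of 1000 kb was set with the data known, and the part of length in the values of Nrg3 was not tested.

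**Figure D4:**
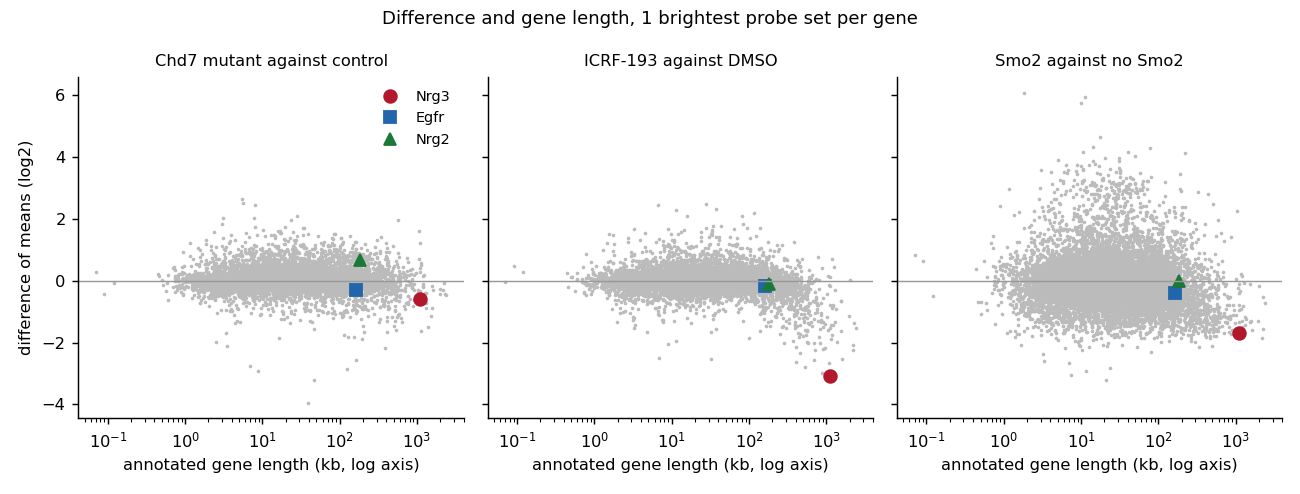
Difference of group means (vertical axis, log2) against annotated gene length (horizontal axis, kb, log scale) in the 3 comparisons, with 1 grey point for each of 10751 genes and Nrg3 (circle), Egfr (square) and Nrg2 (triangle) marked. Nrg3, at 1108.1 kb, lies at -0.60, -3.09 and -1.70, while the shorter Egfr and Nrg2 lie between -0.39 and 0.66.

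Nrg3 was the gene whose low signal with ICRF-193 was known beforehand, and the bases that precede its annotated gene are shown. They come from the RefSeq promoter table of GRCm38.p6, chr14:39473236-39473338 on the minus strand, 5′ to 3′, and capitals mark CG dinucleotides.
Nrg3: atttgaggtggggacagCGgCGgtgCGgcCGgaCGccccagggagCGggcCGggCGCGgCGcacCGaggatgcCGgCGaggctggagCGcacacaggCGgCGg
These 103 bases hold 16 CG dinucleotides and are 78.6% G or C. Over its whole promoter window of 300 bases, 250 before and 50 after the start that the table uses, Nrg3 had 74.3% G or C and 36 CG dinucleotides, above 95.6% and 93.8% of 32851 windows. The table held 5 of the 8 genes. Its windows for Egfr, Erbb2, Erbb4 and Nrg4 had 62.3%, 66%, 55.3% and 51% G or C, beside a median of 52.7% over all windows. The GC box GGGCGG, searched on both strands, occurred once in the Egfr window and in 0 of the other 4, and in 35.7% of all windows.

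The genes whose signal followed Nrg3 (1421017_at) most closely over the 22 arrays were Zfpm2, a cofactor of GATA factors (Pearson correlation 0.967), Zfp521, a zinc finger factor (0.955), the protocadherin Pcdh9 (0.953), the teneurin Tenm1 (0.953), the kainate receptor subunit Grik2 (0.946) and the carbonic anhydrase-related Car10 (0.942). They were the 6 highest of 10771 genes and are a description over arrays that share the same groups. Each had a negative difference in all 3 comparisons, which their choice by correlation over these same arrays favours. Zfpm2 had -0.44 in the Chd7 mutant, -2.33 with ICRF-193 and -1.37 with Smo2, and Pcdh9 had -0.83, -2.97 and -1.73. These genes span between 285.7 kb (Zfp521) and 901.3 kb (Tenm1).

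Around the family, 54 tested genes of 6 ErbB pathway lists were compared, each by its brightest probe set. In the Chd7 mutant 1 (1.85%) was called lower and 4 (7.41%) higher, with ICRF-193 2 (3.7%) lower and 2 (3.7%) higher, and with Smo2 29 (53.7%) lower and 6 (11.1%) higher. Over all tested probe sets these shares were 3.44% and 3.41%, 2.77% and 1.98%, and 34.9% and 26.3%, and nothing particular to the lists is read from the few calls in the mutant and with ICRF-193. These shares count every probe set, while each listed gene counts once. In the fit of 1 probe set per gene, 4197 of 10772 genes were called lower and 3196 higher with Smo2. With the replicate number as a block the counts over the 54 genes were 3 lower and 7 higher in the mutant and did not change with ICRF-193. The median difference over the 54 genes was 0.01 in the mutant, -0.01 with ICRF-193 and -0.30 with Smo2. The lists were chosen with earlier results known, so their counts describe these arrays.

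In the Chd7 mutant the 4 genes called higher stood at different levels of the pathway. Egr1, an immediate early gene induced through ERK, rose by 1.29 (9.09 ± 0.50 in mutant and 7.81 ± 0.25 in control arrays, SD, n = 4 each, limma adjusted p = 0.0192). Cd44, a hyaluronan receptor that associates with ErbB receptors, rose by 1.00 (adjusted p = 0.00798). The adaptor Shc1, which couples ErbB receptors to Ras, rose by 0.53 (adjusted p = 0.0468) and Errfi1, a feedback inhibitor of Egfr and Erbb2 kinases, by 0.27 (adjusted p = 0.0432, or 0.0636 with a block for the replicate number). Dlg2, a synaptic scaffold, fell by 0.44 (adjusted p = 0.0289). The 5 tested shedding proteases and regulators, among them Adam10 and Bace1, had differences between -0.03 and 0.62 and 0 were called by limma, with 2 at an unadjusted p under 0.05. With the block Adam17 (0.38, adjusted p = 0.0482), Lrig1 (0.66, 0.013), Lrig3 (0.54, 0.014) and Sdc3 (0.30, 0.0441) were called higher as well, and Gab2 (-0.63, 0.0174) and Grin2b (-0.42, 0.038) lower. Without it their adjusted p-values were 0.158, 0.352, 0.072, 0.18, 0.0768 and 0.128. The call of Errfi1 was lost with any 1 of the 8 arrays left out (adjusted p = 0.0633 to 0.113) and that of Shc1 without any but control replicate 1 (0.0545 to 0.106). That of Egr1 was lost without control replicate 1 (0.0572), 3 (0.0595) or 4 (0.0511), and that of Dlg2 without control replicate 3 (0.081) or 4 (0.0768) or mutant replicate 1 (0.0691), 2 (0.0697) or 4 (0.0591). With the Y-linked mean as a covariate Cd44 had 0.65 (adjusted p = 0.157), Shc1 0.32 (0.41) and Errfi1 0.19 (0.303), while Egr1 had 2.26 (0.00283) and Dlg2 -0.71 (0.0182).

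Markers of other cells moved with this comparison. Of the granule progenitor and cycling markers Ccnd1 rose by 1.05 (adjusted p = 0.00149), 1 of 5 tested, with a summed linear signal of 7730 to 15000 in mutant and 4410 to 8170 in control arrays. That of the oligodendrocyte lineage markers was 13800 to 17600 in mutant and 4560 to 10900 in control arrays, with 1 of 6 tested genes called higher, Pdgfra (1.02, limma adjusted p = 0.028). Of 8 astrocyte and Bergmann glia markers 1, Gja1 (0.86), was called higher, with sums of 10400 to 35300 in mutant and 8060 to 18300 in control arrays. Of 6 fibroblast and pericyte markers 2 were called higher, Dcn (1.50) and Pdgfrb (0.81), with sums of 5480 to 11400 in mutant and 2860 to 5820 in control arrays. Microglia markers had sums of 764 to 3020 in mutant and 2240 to 4160 in control arrays, with 0 of 4 called by limma and 2 at an unadjusted p under 0.05. With the replicate number as a block more of these markers were called higher, 4 of 5 cycling markers with Top2a (0.68, adjusted p = 0.00656), 3 of 6 oligodendrocyte markers with Olig2 (1.37, 0.00934), 4 of 8 astrocyte markers with S100b (1.03, 0.00725) and 5 of 6 fibroblast markers with Col1a2 (0.87, 0.00768), and 1 of 4 microglia markers, Fcer1g (-0.92, 0.0149), was called lower. No marker of these lists was at the floor on every array, and their part in the results above was not tested.

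With ICRF-193 the adaptor, inhibitor and protease lists gave no calls. Of 23 tested adaptors, kinases and effectors 0 were called, with differences between -0.37 and 0.33, and likewise 0 of 10 inhibitors and turnover genes and 0 of 5 proteases and regulators. At an unadjusted p under 0.05 by limma these counts were 2, 1 and 3. The calls lay among the membrane partners and the output genes. Grin2b, an NMDA receptor subunit, fell by 1.73 (8.02 ± 0.15 with ICRF-193 and 9.75 ± 0.19 with DMSO, SD, n = 4 each, limma adjusted p = 0.000124), and Dlg2 fell by 1.15 (adjusted p = 0.000198). Sdc3, a heparan sulphate proteoglycan, rose by 0.56 (adjusted p = 0.017), a call lost without replicate 1 (0.0561) or 2 (0.051) of DMSO or replicate 3 (0.0541) or 4 (0.054) of ICRF-193. Dusp4, a phosphatase of ERK, rose by 0.58 (11.65 ± 0.07 with ICRF-193 and 11.08 ± 0.07 with DMSO, adjusted p = 0.00293), and with median centring the difference was 0.51 and not called (adjusted p = 0.126). No call was made by limma among 24 tested marker genes of oligodendrocytes, astrocytes, fibroblasts and microglia in this comparison (8 at an unadjusted p under 0.05), while Gad1, a marker of GABAergic interneurons, fell by 0.42 (adjusted p = 0.0381). With the replicate number as a block 4 of the 24 were called lower, Olig1 (-1.05, adjusted p = 0.0107), Sox10 (-0.61, 0.0226), Mbp (-0.62, 0.00894) and Aqp4 (-0.65, 0.0336). So were Atoh1 (-0.90, 0.0089), Ccnd2 (-0.51, 0.0248) and Cntn2 (-0.36, 0.041), and Mki67 (0.53, 0.0137) was called higher. Pdgfra, also of the oligodendrocyte list, went the other way with 0.68 and was not called (limma adjusted p = 0.116, or 0.0592 with the block). The part of these markers in the values above was not tested.

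With Smo2 calls were spread over all 6 lists. Among the inhibitors, Lrig3, a membrane protein related to the ErbB antagonist Lrig1, rose by 3.10 (10.14 ± 0.05 with Smo2 and 7.04 ± 0.22 without it, SD, n = 3 each, limma adjusted p = 1.08e-05), while Lrig2 (-0.78) and Rnf41 (-0.65), a ubiquitin ligase of Erbb3, fell. The phosphatase Ptpn12 rose by 0.62. Among the sheddases and their regulators, Bace1, which cleaves Nrg1, fell by 0.87 (adjusted p = 6.99e-05), Rhbdf1 fell by 0.49 (adjusted p = 0.017, lost without replicate 2 (0.0512) or 3 (0.0558) of the cells with Smo2) and Adam10 fell by 0.33 (adjusted p = 0.0124, but -0.10 and 0.344 with median centring), while Adam17, the enzyme that releases Tgfa, rose by 0.94 (adjusted p = 0.000522). Tgfa itself fell by 0.70 (adjusted p = 0.0101). These genes did not move one way.

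Downstream, 12 of 23 adaptors, kinases and effectors were called lower with Smo2 and 2 higher, beside 34.9% lower and 26.3% higher over all tested probe sets. The docking protein Gab1 fell by 1.01 (11.23 ± 0.03 with Smo2 and 12.25 ± 0.07 without it, n = 3 each, limma adjusted p = 5.09e-05), and the kinase Src (-0.81) and the lipid kinase subunit Pik3ca (-0.76) fell too, while Shc1 rose by 1.17 (adjusted p = 0.000647). Of 9 tested ERK output and feedback genes 5 were called lower and 1 higher, with Dusp4 (-1.08), Fos (-0.65), Dusp6 (-0.59) and Etv5 (-0.59) among those that fell. At the synapse and membrane 4 of 6 fell, Grin2b (-1.78), Dlg2 (-1.32), Sdc3 (-1.08) and Cd44 (-0.57).

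**Figure D5:**
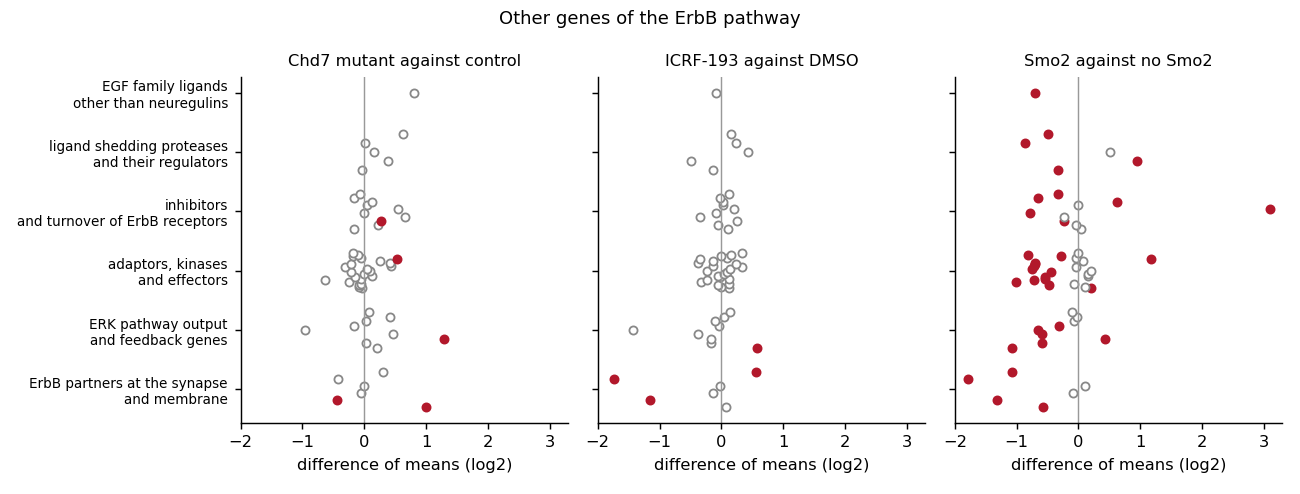
Difference of group means (horizontal axis, log2, the left-named group minus the right-named one) of the 54 tested genes of 6 ErbB pathway lists (rows) in the 3 comparisons, with filled red circles for genes called and open circles for genes not called. Calls number 5 in the Chd7 mutant, 4 with ICRF-193 and 35 with Smo2.

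Marker signals of the Smo2 cultures differed broadly, beside 34.9% of all tested probe sets called lower and 26.3% higher. All 5 tested granule progenitor and cycling markers were called higher, among them Ccnd1 (5.73), with a summed linear signal of 47600 to 49000 with Smo2 and 7920 to 8730 without it. All 9 tested granule neuron markers were called lower, with a median of -0.66. Of 8 astrocyte and Bergmann glia markers 6 were called lower and 2 higher, with sums of 5250 to 6130 with Smo2 and 7920 to 9200 without it, and all 3 tested interneuron markers and all 4 tested microglia markers were called lower. Of 6 tested oligodendrocyte lineage markers 3 were called higher and 2 lower, with sums of 7890 to 8020 with Smo2 and 8970 to 9460 without it. Of 6 fibroblast and pericyte markers 1 was called higher and 0 lower. The 1 tested Purkinje cell marker was called lower. The summed signal of all 4 Purkinje cell markers went the other way, with 419 to 465 with Smo2 and 240 to 317 without it. The 1 tested endothelial marker was not called. The part of these marker differences in the lower Nrg3 and Egfr signals was not tested.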

How the data were processed

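Biotin-labelled RNA of 22 samples, all biological replicates by their labels, was hybridised to Affymetrix mouse arrays. The authors deposited signal intensities on a linear scale for 45101 probe sets, and with 2% trimmed from each end every array had a mean of 500. The sources used here do not name the software that summarised the probes. No counts exist, and precision is limited by how many arrays there are. Gene symbols came from the platform annotation, in which 34958 probe sets carry 1 symbol, and symbols, lengths and promoter sequences from RefSeq (GRCm38.p6).

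A floor of 16 was set before log2 values were quantile normalised across the 22 arrays, whose medians had lain between 6.33 and 6.81. For each comparison limma 3.58.1 (R 4.3.3) was run on its own arrays as a two-sided test, and p-values were adjusted by Benjamini-Hochberg over the 22551 tested probe sets or, for dim ones, over all 45101. Arrays sharing a replicate number deviated together from their group means, with correlations of 0.30 to 0.35 for Chd7 and 0.28 to 0.41 for ICRF-193, and so did unlike numbers among replicates 1 and 2 or among 3 and 4 (0.27 to 0.36, and 0.32 to 0.34). The numbers come from the labels. Since unlike numbers correlated about as much, these correlations do not show that arrays of the same number are pairs. The main fits hold no block. Values with the replicate number as a block are an alternative, and stand beside the named results and list counts whose call they change.

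The genes, gene lists, tests and alternatives were chosen with earlier results of these data known. Named genes are the 8 genes in every probe set, up to 4 called genes per pathway list and comparison by size, Chd7, and the 6 genes most correlated with Nrg3. Alternatives varied normalisation, filter, floor, block, variance model, test, probe sets per gene and threshold, and omitted single arrays. The script was tested on simulated data. Plots were made in Python 3.11.15 with matplotlib 3.10.9.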

Additional observations from a re-analysis of the deposited data

Results flagged for a closer look

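In 13 of 76 groups of 4 arrays, over the neuregulin, ErbB and Chd7 probe sets, 1 array lay far from the other 3 by Dixon's criterion, which chance alone gives in about 5% of groups. In 5 of these groups the other 3 arrays were all at the floor, so that any signal stood apart. These were Erbb4 (1427783_at) in Chd7 mutant replicate 1 (5.25) and ICRF-193 replicate 4 (4.18), Nrg2 (1447654_at) in Chd7 control replicate 3 (5.74), Erbb3 (1452482_at) in Chd7 mutant replicate 2 (4.49) and Nrg4 (1457123_at) in Chd7 mutant replicate 1 (4.89).

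Among signals above the floor, Egfr (1451530_at) had 6.95 in Chd7 mutant replicate 3, while the other mutant arrays had 6.15 to 6.28. Nrg2 (1444491_at) had 8.42 in DMSO replicate 4, beside 7.57 to 7.71, and the dim Nrg2 probe set 1457283_at had 6.22 in Chd7 control replicate 2, beside 5.99 to 6.01. Erbb3 (1434606_at) had 5.09 in Chd7 mutant replicate 3, beside 6.50 to 6.65. Nrg4 (1421681_at) had 5.49 in Chd7 control replicate 3, beside 4.00 to 4.25, and 4.62 in ICRF-193 replicate 4, beside 5.41 to 5.53. For Nrg3 (1460289_at) the arrays that stood apart differed little from the rest, with 5.95 in Chd7 mutant replicate 2, beside 5.85 to 5.86, and 6.58 in Chd7 control replicate 2, beside 6.46.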

How the results depend on the processing

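The lower Nrg3 signal (1421017_at) kept its direction under all alternatives run, between -3.34 and -2.74 with ICRF-193, between -1.88 and -1.61 with Smo2, where it was called in all 18, and between -0.71 and -0.31 in the Chd7 mutant. In the mutant its difference of -0.60 was not called without the filter (adjusted p = 0.0619), with the methods' t-test and Benjamini-Hochberg adjustment (0.0544), with all 6 groups in 1 fit (0.171), at an adjusted p under 0.01 or within replicates 1 and 2 (0.139), and neither was the -0.31 with the Y-linked covariate. Leaving out 1 array gave -0.71 to -0.54 with 0 or 1 of the 6 tested family probe sets called lower. That count was 2 with median centring, the replicate block, the replicate set as a block or the Y-linked covariate, and 0 in the other fits named here, and 1 was called higher with all 6 groups in 1 fit and with the t-test at an unadjusted p under 0.05. With Smo2 1 was lower at an adjusted p under 0.01.

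Small differences turned sign. Egfr (1451530_at) in the mutant had -0.30 within replicates 1 and 2, -0.15 with the covariate, and with 1 array left out -0.12 (without mutant replicate 3), -0.02 (without control replicate 4) up to 0.16. Egfr (1424932_at) had -0.66 and was called with the covariate (adjusted p = 0.0181), and it had 0.11 within replicates 3 and 4, and 0.01 to 0.06 without control replicate 3 or mutant replicates 1 (0.04) or 2. With Smo2 on the deposited scale Nrg2 (1444491_at) had -0.14 and Egfr (1451530_at) -0.10, and leaving out 1 array gave Nrg2 -0.11 to 0.13 (below 0 in 4 of 6 cases) and Egfr -0.04 to 0.20 (below 0 in 1).

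Over all probe sets 775 were lower and 770 higher in the mutant, 625 and 447 with ICRF-193, and 7877 and 5937 with Smo2. With the t-test at an unadjusted p under 0.05 there were 2673 and 2401 in the mutant and 1773 and 2043 with ICRF-193. All 6 groups in 1 fit gave 1178 higher in the mutant, and 1084 lower and 1029 higher with ICRF-193. With 1 probe set per gene 412 were lower in the mutant, 373 with ICRF-193, and 4197 lower and 3196 higher with Smo2. An adjusted p under 0.01 left 240 and 228 in the mutant and 337 and 171 with ICRF-193. The replicate set as a block gave 1764 and 1896 in the mutant and 1050 and 945 with ICRF-193. Within replicates 1 and 2, 411 were lower in the mutant, and 214 and 82 lower and higher with ICRF-193. Within replicates 3 and 4 there were 175 and 64. The covariate gave 1302 and 1189, and median centring 252 higher with ICRF-193. Leaving out 1 array gave 414 to 576 lower and 417 to 533 higher in the mutant, and 271 to 362 higher with ICRF-193. The share of lower among called probe sets was 50.2% after quantile normalisation, 63.1% with median centring and 42.1% on the deposited scale in the mutant, and 57%, 45.4% and 60.7% with Smo2, where the median of all tested probe sets was -0.16 on the deposited scale and -0.10 after quantile normalisation.

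The replicate block gave 2037 calls in place of 1545 in the mutant and 1433 in place of 1072 with ICRF-193. In the Smo2 comparison, where same-numbered arrays correlated by only 0.02 to 0.04 and share only a number, it gave 13217 in place of 13814, and the dim Nrg3 probe set 1460289_at had an adjusted p of 0.0732 under it. The causes were not tested. Signals near the floor limit what can be said of Nrg1, Nrg4, Erbb2, Erbb3 and Erbb4.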
